A study of Mus musculus with 4 samples.

Results

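Transcripts that mark B cells were followed in RNA from sorted regulatory T cells, together with Pou2af1, the gene of a transcriptional coactivator that B cells and some T cells make. The set has 9 genes of the 24061 in the deposited count table: Pou2af1, the B cell genes Cd79a, Cd79b, Ms4a1 and Bank1, and the class II genes Cd74, H2-Aa, H2-Ab1 and H2-Eb1. The genes were chosen by their symbols, with their measured levels in the 4 libraries already known. They were picked to ask whether Pou2af1 goes with the B cell transcripts or with the level of Maf, so the levels that bear on this choice are given as a description, without a test. All 9 were present in the table and all 9 passed the filter on low counts, which 13022 genes passed.

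Pou2af1 encodes OBF-1 (also called BOB.1 or OCA-B), which has no DNA-binding domain of its own and joins the octamer-binding factors Oct-1 and Oct-2 on DNA. It is needed for germinal centres and is also made by follicular helper T cells. Cd79a and Cd79b encode the signalling chains of the B cell antigen receptor, and class II molecules present peptides to CD4 T cells on B cells, dendritic cells, macrophages and some epithelial cells. Peyer's patches are rich in B cell follicles, from which small amounts of B cell RNA can enter a T cell sort.

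Effector regulatory T cells, CD4-positive and FoxP3-positive without surface CD62L, had been sorted from the patches of mice aged 13 weeks on a C57BL/6 background (N5 backcross), with about 40000 cells per RNA sample. All mice carried FoxP3-YFP-cre, a Cre enzyme and a yellow fluorescent protein expressed from Foxp3, which is active in regulatory T cells, and were kept free of Helicobacter hepaticus. By label, 2 libraries were wild type (Maf+/+FoxP3-YFP-cre, called wt 1 and wt 2) and 2 came from mice with both Maf alleles floxed (Mafflox/floxFoxP3-YFP-cre, called flox 1 and flox 2). The labels name no separate animals, so the spread behind each p-value is that of these samples and may be technical.

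Gene totals ranged from 19368745 to 24687897 counts per library. Maf, the targeted gene, did not match the titles: counts were 3071 in labelled wt 1, 40 in labelled wt 2, 2975 in labelled flox 1 and 15 in labelled flox 2. Libraries are therefore named by their labels, no library was moved to another group, and values are given in that order throughout. The libraries numbered 1 were those with high Maf. These numbers are the ones in the titles; a separate replicate field gives 1 for both wt libraries and 2 for both flox libraries, so the number marks no stated pairing. The T cell genes Cd3e (1239 to 1370 CPM, counts scaled to library size) and Cd4 (920 to 998 CPM) and the lineage factor Foxp3 (91 to 104 CPM) were present in every library at similar levels. Intervals below are at 95% and cover counting error only.

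Pou2af1 was high in both libraries numbered 1 and low in both numbered 2. It had 674, 125, 814 and 79 counts, which are 32.8, 6.18, 33.3 and 3.82 CPM. The libraries labelled wt 1 and flox 1 were within each other's counting intervals, and neither overlapped the libraries labelled wt 2 and flox 2. Within the wt label, the library numbered 1 was 5.3 times as high as the library numbered 2 (interval 4.37 to 6.47). Within the flox label the ratio was 8.73 (6.92 to 11.1). In the same pairs Maf had ratios of 75.5 (55.3 to 106) and 168 (102 to 301), and Il10, an anti-inflammatory cytokine, had 17.5 (16 to 19.2) and 14.3 (13.2 to 15.7). Per kilobase of annotated exon, Pou2af1 stood at 12.9, 2.42, 13.1 and 1.5 RPKM. In a bulk sample, fewer cells that make a transcript and less transcript per cell cannot be told apart.

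**Figure D1:**
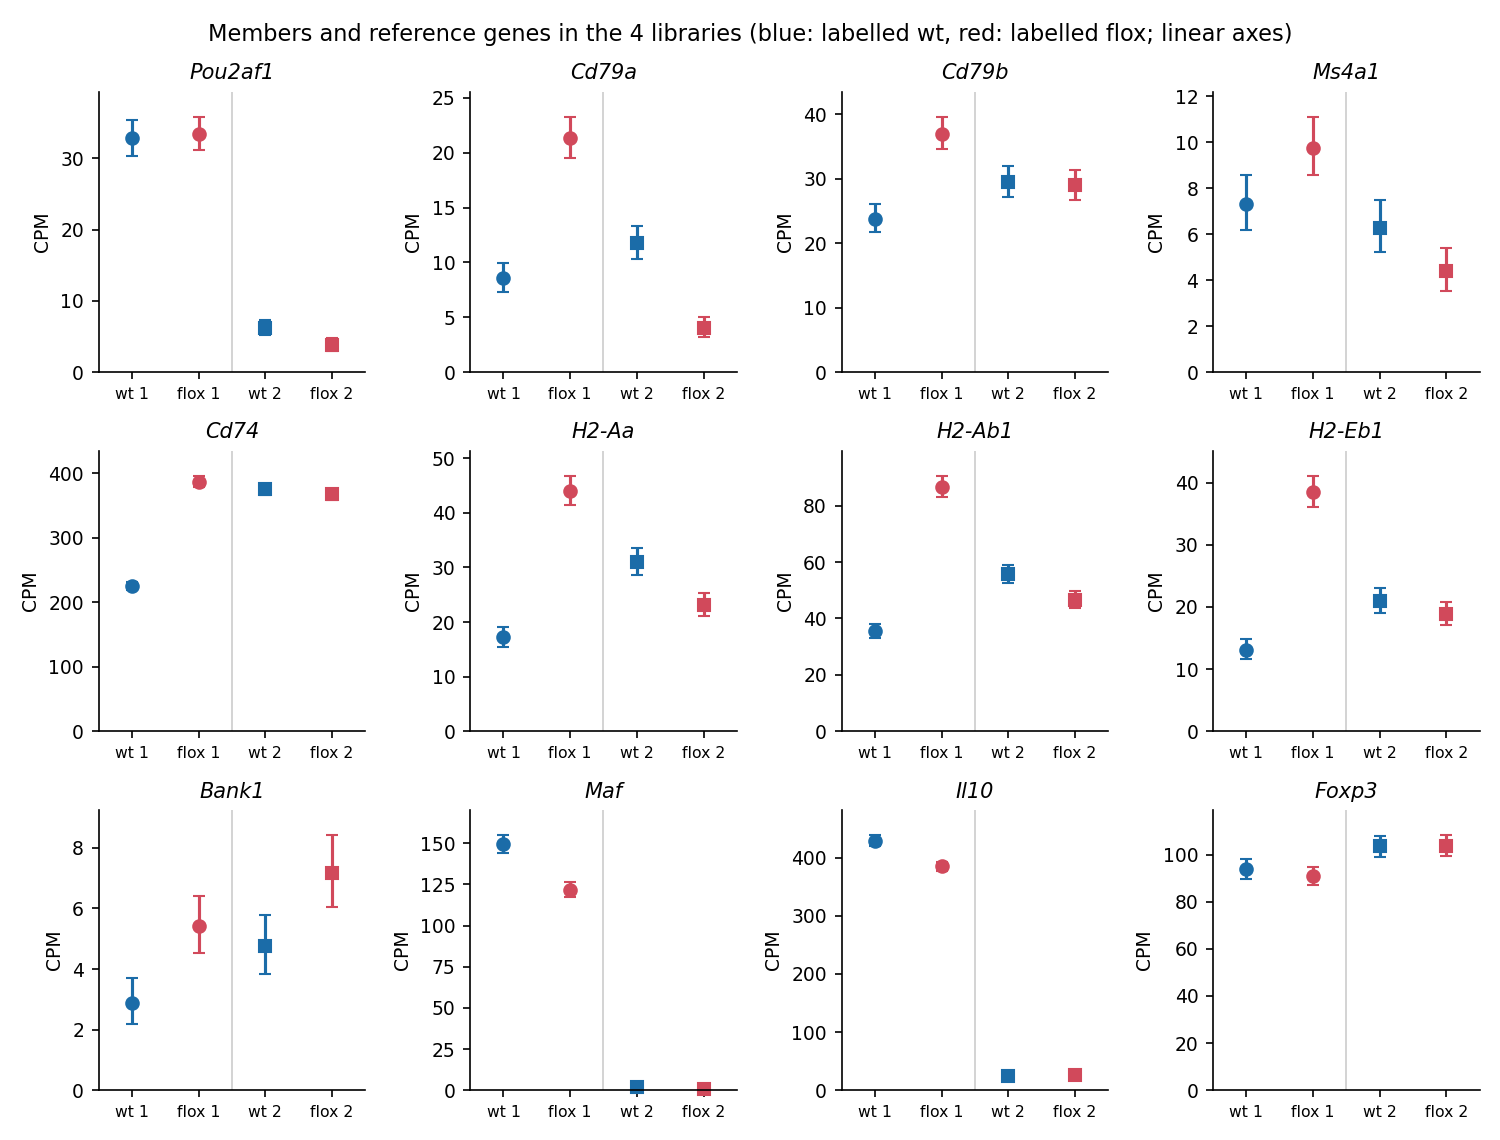
CPM of the 9 genes and of Maf, Il10 and Foxp3 in each library (points, with 95% Poisson intervals of the counts as bars; blue for labelled wt, red for labelled flox, circles for number 1, squares for number 2; linear axes from 0). Pou2af1 lies at 32.8 and 33.3 CPM in the libraries numbered 1 and at 6.18 and 3.82 in those numbered 2, while Cd79a, Cd79b and the class II genes are highest in the library labelled flox 1.

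The start region of Pou2af1 is shown because the gene's level split by library number. It lies on the plus strand of chromosome 9, where the GENCODE gene spans 51213708 to 51240080 (GRCm38, the assembly of mm10). The window of 300 bases is from RefSeq (GRCm38.p6, chr9:51213440-51213739), with 250 bases before the RefSeq start at 51213690, a little upstream of the GENCODE one, and capitals mark the letters TGCTGA, the first 6 of a Maf recognition element.
Pou2af1: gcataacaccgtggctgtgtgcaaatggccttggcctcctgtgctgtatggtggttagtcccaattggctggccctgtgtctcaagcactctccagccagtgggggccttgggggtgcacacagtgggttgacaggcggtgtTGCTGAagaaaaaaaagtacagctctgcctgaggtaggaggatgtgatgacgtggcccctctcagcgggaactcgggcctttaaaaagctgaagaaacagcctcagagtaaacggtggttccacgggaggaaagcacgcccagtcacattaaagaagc
The match begins 108 bases before the RefSeq start. On either strand these letters occur in 19.5% of the 32851 RefSeq windows of this length. The octamer ATGCAAAT, the letters that Oct-1 and Oct-2 read, is in 1.74% of all windows on either strand, and was not among the letters of this one. A match describes the sequence and shows no binding.

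The octamer factors themselves were steady across the libraries. Pou2f1, which encodes Oct-1, had 48.6, 42.9, 48.5 and 41.6 CPM, and Pou2f2, which encodes Oct-2, had 125, 120, 114 and 133. Siah1a encodes a ubiquitin ligase known to bind OBF-1, and had 35.9, 41.4, 33.2 and 32.5 CPM. The related ligase gene Siah2 had 97.6, 54.6, 98.5 and 77.5 CPM, with both libraries numbered 1 above both numbered 2. Pou2f3, the octamer factor of tuft cells, had 8 counts or fewer in each library and did not pass the filter. Of the 7 genes listed as octamer factors and partners, 6 were tested and 0 passed the test between labels described below.

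The antigen receptor chain Cd79a did not follow the library number. It had 176, 238, 520 and 84 counts, or 8.56, 11.8, 21.3 and 4.06 CPM. The library labelled flox 1 was highest and flox 2 lowest, with both wt libraries between them. Within wt the library numbered 1 was lower (ratio 0.727, interval 0.595 to 0.887), and within flox it was 5.24 times as high (4.16 to 6.68). Cd79a and Pou2af1 thus differed in opposite directions between the wt libraries and in the same direction between the flox libraries.

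Cd79b, the partner chain, varied less, at 23.8, 29.6, 37 and 29 CPM. Its ratios were 0.806 within wt (0.714 to 0.91) and 1.28 within flox (1.15 to 1.42). Per kilobase of exon, Cd79b had 16.6, 20.7, 25.9 and 20.3 RPKM, above Cd79a at 5.87, 8.08, 14.6 and 2.79 RPKM in every library. The count of Cd79a over that of Cd79b was 0.359, 0.398, 0.575 and 0.14, so that the chains of the receptor did not keep a constant ratio, with the library labelled flox 2 furthest from the rest.

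Ms4a1, which encodes the B cell surface protein CD20, had 7.29, 6.28, 9.75 and 4.4 CPM. Both libraries numbered 1 lay above both numbered 2, by little within wt (ratio 1.16, 0.911 to 1.48) and by more within flox (2.22, 1.73 to 2.85). Bank1, a scaffold protein of B cell receptor signalling, had 2.87, 4.75, 5.41 and 7.16 CPM and was lower in the library numbered 1 in both labels. Its ratios were 0.604 (0.429 to 0.844) and 0.755 (0.593 to 0.962). Bank1 was the single gene of the set that was highest in the library labelled flox 2. In GRCm38, Cd79a is on chromosome 7 (24897381 to 24902197, plus strand) and Cd79b on chromosome 11 (106311341 to 106314762, minus strand). Ms4a1 is on chromosome 19 (11249675 to 11266241, minus strand) and Bank1 on chromosome 3 (136053363 to 136326066, minus strand).

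The class II genes had parallel levels. H2-Ab1, the beta chain of I-A, had 730, 1128, 2114 and 965 counts (35.5, 55.8, 86.6 and 46.7 CPM). H2-Aa, the alpha chain of I-A, had 17.2, 31, 44 and 23.1 CPM, and H2-Eb1, the beta chain of I-E, had 13.1, 20.9, 38.5 and 18.9. These 3 genes were lowest in labelled wt 1 and highest in labelled flox 1, so the library number did not separate them. Between the wt libraries the ratio of number 1 to number 2 was 0.636 for H2-Ab1 (0.579 to 0.699), 0.555 for H2-Aa (0.486 to 0.633) and 0.628 for H2-Eb1 (0.537 to 0.733). Between the flox libraries it was 1.86 (1.72 to 2), 1.9 (1.71 to 2.12) and 2.04 (1.81 to 2.3). The direction was opposite to that of Pou2af1 within wt and the same within flox.

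Within a library the class II chains kept nearly constant proportions. H2-Ab1 counts over H2-Aa counts were 2.06, 1.8, 1.97 and 2.02, a spread of 1.15-fold, and over H2-Eb1 counts they were 2.7, 2.67, 2.25 and 2.47, a spread of 1.2-fold. Over Cd79a counts the ratio was 4.15, 4.74, 4.07 and 11.5. It was alike in 3 libraries, and the library labelled flox 2, which had the least Cd79a, stood apart.

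Because H2-Aa and H2-Eb1 had parallel levels, their start regions are shown side by side. Both genes lie in the class II cluster of chromosome 17, with H2-Aa at 34282744 to 34287823 on the minus strand and H2-Eb1 at 34305867 to 34316674 on the plus strand (H2-Ab1 is at 34257689 to 34269419, plus strand). The windows, from RefSeq (GRCm38.p6), are chr17:34287774-34288073 (minus strand) and chr17:34305617-34305916 (plus strand), each of 300 bases and read in the direction of transcription.
H2-Aa: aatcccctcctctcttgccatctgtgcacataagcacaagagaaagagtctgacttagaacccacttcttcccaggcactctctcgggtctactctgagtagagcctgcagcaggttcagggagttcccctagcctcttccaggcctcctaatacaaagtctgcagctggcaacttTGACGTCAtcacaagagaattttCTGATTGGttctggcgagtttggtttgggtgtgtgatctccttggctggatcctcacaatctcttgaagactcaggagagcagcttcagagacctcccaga
H2-Eb1: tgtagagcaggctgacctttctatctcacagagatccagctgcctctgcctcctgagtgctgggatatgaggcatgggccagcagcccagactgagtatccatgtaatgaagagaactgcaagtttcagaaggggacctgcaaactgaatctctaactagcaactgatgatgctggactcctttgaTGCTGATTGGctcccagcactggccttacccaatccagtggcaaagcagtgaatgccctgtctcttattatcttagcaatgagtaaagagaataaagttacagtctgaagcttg
Capitals mark CTGATTGG, the letters of the Y box that the factor NF-Y reads in class II promoters. They begin 51 bases before the start of H2-Aa and 62 before that of H2-Eb1, and occur on either strand in 4.1% of all windows. In H2-Aa the capitals also mark TGACGTCA, a cyclic AMP response element, 74 bases before the start (1.79% of windows). In H2-Eb1 they include TGCTGA, which begins 64 bases before the start and overlaps the Y box letters. Windows were available for 5 of the 9 genes. Those of Cd79a and Bank1 held none of the 4 motifs searched, and the octamer was in none of the 5.

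Factors known to act on class II promoters varied unequally. Nfya, Nfyb and Nfyc, which encode NF-Y and spanned 1.21-fold or less, had 7.76 to 9.42, 70.8 to 82.6 and 69.4 to 80.2 CPM. Ciita, the master coactivator of class II genes, had 4.13, 3.12, 7.05 and 3.39 CPM and was highest in the library labelled flox 1, 2.26 times the lowest. Rfx5, a subunit of the RFX complex on the same promoters, had 30.8, 47.2, 35.1 and 42.3 CPM. The peptide-loading chain H2-DMa had 60.8, 55.8, 63.9 and 58 CPM, and H2-Ob, a chain of the loading regulator H2-O, had 48.4, 42.7, 58.4 and 41.8. The highest library exceeded the lowest by 1.15-fold for H2-DMa and 1.4-fold for H2-Ob, against 2.44-fold for H2-Ab1. The loading chain H2-DMb1, at 1.65, 3.56, 3.69 and 2.13 CPM, spanned 2.23-fold and, like the presenting chains, was lowest in labelled wt 1 and highest in labelled flox 1. The protease gene Ctss had 273, 238, 285 and 273 CPM. Of the 15 listed genes of the class II pathway beyond the set, 15 were tested, 8 were highest in the library labelled flox 1 (22.3% of all tested genes), and 0 passed between labels.

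Cd74, which encodes the invariant chain that accompanies class II molecules, was the most abundant gene of the set. It had 225, 375, 387 and 368 CPM, or 134, 224, 231 and 219 RPKM, so that 3 libraries were close together and the library labelled wt 1 was low. Its ratio of number 1 to number 2 was 0.599 within wt (0.577 to 0.621) and 1.05 within flox (1.02 to 1.09). H2-Ab1 counts over Cd74 counts were 0.158, 0.149, 0.224 and 0.127. Cd74 lies on chromosome 18 (60803848 to 60812652, plus strand).

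Against the B cell genes of the same library, Pou2af1 did not keep a constant ratio. Pou2af1 counts over Cd79a counts were 3.83 (3.24 to 4.55), 0.525 (0.42 to 0.655), 1.57 (1.4 to 1.75) and 0.94 (0.683 to 1.29). Over Cd79b they were 1.38, 0.209, 0.9 and 0.132, over Ms4a1 4.49, 0.984, 3.42 and 0.868, and over Bank1 11.4, 1.3, 6.17 and 0.534. For each of the 4 B cell genes both libraries numbered 1 lay above both numbered 2, and the highest ratio exceeded the lowest by 7.29-fold for Cd79a, 10.4-fold for Cd79b, 5.18-fold for Ms4a1 and 21.4-fold for Bank1. The B cell genes also varied against each other: Cd79a over Ms4a1 spanned 2.37-fold, over Cd79b 4.11-fold and over Bank1 6.94-fold.

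**Figure D2:**
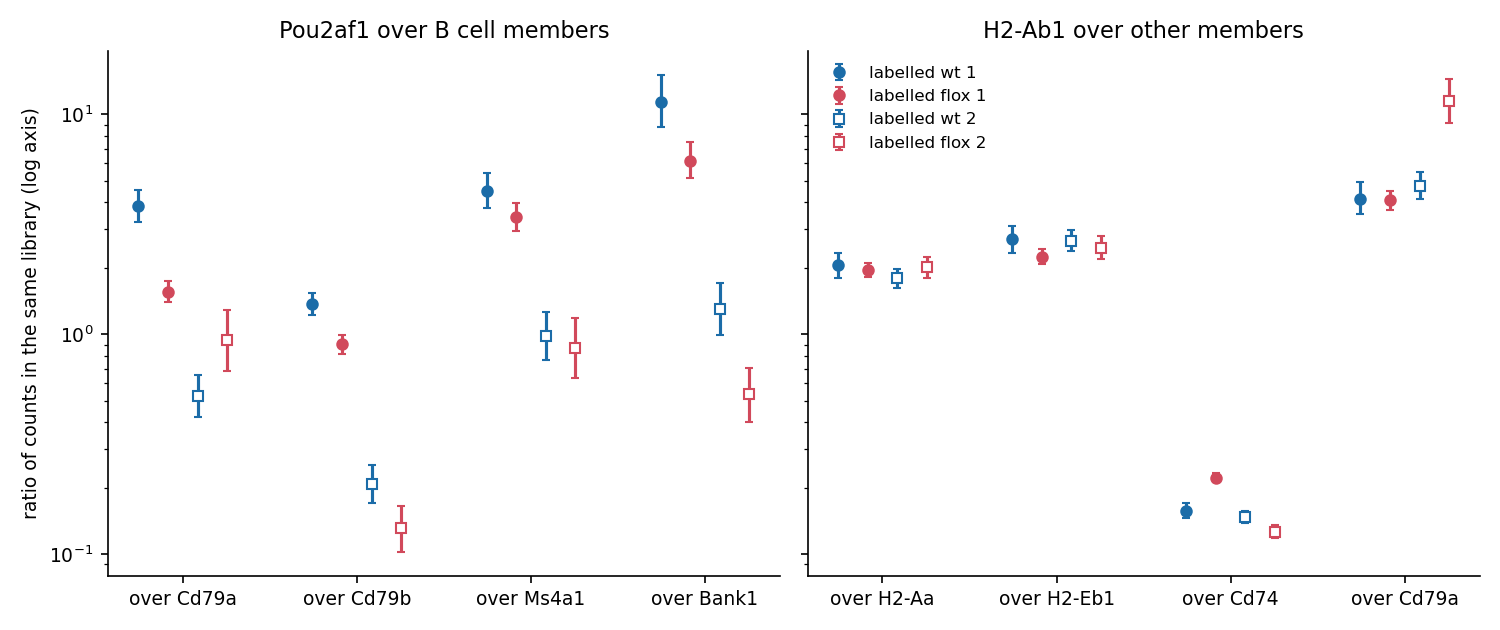
Ratio of counts in the same library on a log axis, with 95% binomial intervals (filled circles for number 1, open squares for number 2; blue for labelled wt, red for labelled flox). Pou2af1 over each of 4 B cell genes is higher in both libraries numbered 1, while H2-Ab1 over H2-Aa stays between 1.8 and 2.06.

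A similar picture was given by 11 narrow B cell markers, chosen after their values were seen because the listed B cell genes with the highest counts are also made by T cells. The markers were Cd79a, Ms4a1, Pax5, Ebf1, Blk, Fcrla, Spib, Siglecg, Fcer2a, Cr2 and Vpreb3. They summed to 691, 598, 1573 and 351 counts, or 33.6, 29.6, 64.4 and 17 CPM, and 0 of them were at 0 in any library. Their sum was 1.14 times as high in number 1 within wt (1.02 to 1.27) and 3.8 times within flox (3.38 to 4.27). Pou2af1 counts over this sum were 0.975 (0.876 to 1.09), 0.209 (0.171 to 0.254), 0.517 (0.475 to 0.564) and 0.225 (0.174 to 0.288). The ratio was alike in both libraries numbered 2 and higher in both numbered 1. Many of the markers shared the direction of Pou2af1: 9 of the 11 were higher in number 1 within wt and 11 within flox. Among all 13022 tested genes, 6319 were higher in number 1 within wt and 6538 within flox. For 7 of the 11, both libraries numbered 1 lay above both numbered 2, against 22.5% of all tested genes. Pax5, which is included in each of these marker counts, did not pass the filter on low counts and is not among the tested genes. Cr2, the complement receptor of follicular B cells, had 4.47, 1.14, 3.6 and 1.16 CPM.

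Counts over the whole set describe the same pattern and are no test, since these values chose the genes. Both libraries numbered 1 lay above both numbered 2 for 2 of the 9 genes, Pou2af1 and Ms4a1, and for 22.5% of all tested genes. Pou2af1 was the only 1 of the 9 that was at least 2-fold higher in the library numbered 1 within both labels, as were 2.1% of all tested genes. All but Bank1, 8 of 9, were highest in the library labelled flox 1, against 22.3% of all tested genes. For 6 of the 9 genes the level was lower in wt 1 than in wt 2 and higher in flox 1 than in flox 2, against 21.3%.

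**Figure D3:**
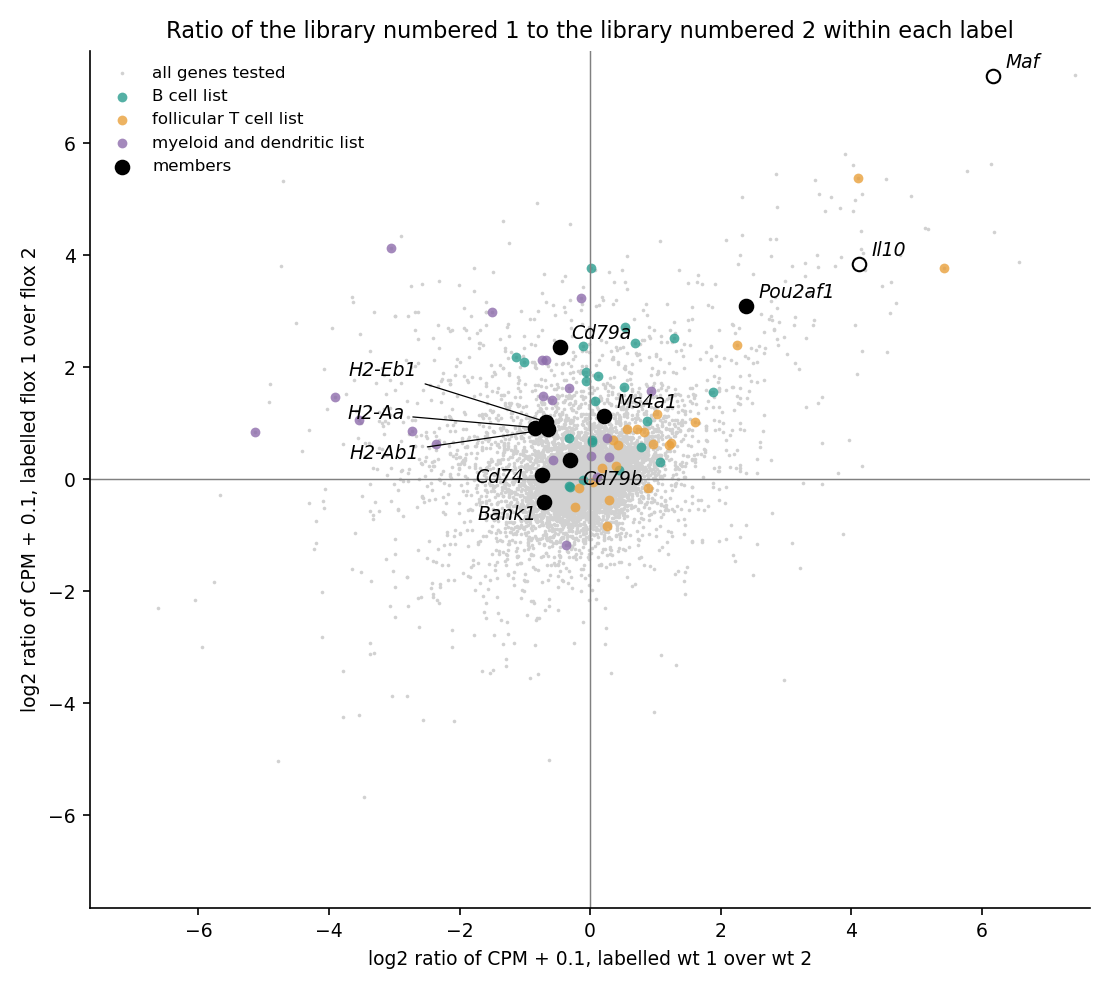
Each point is a gene, with the log2 ratio of CPM + 0.1 between the libraries numbered 1 and 2 within wt on the x axis and within flox on the y axis (grey, all tested genes; black, the 9 genes; open circles, Maf and Il10; colours, gene lists). Pou2af1 lies towards Il10 and Maf at the upper right, and the class II genes and Cd79a lie left of the vertical line and above the horizontal one.

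Genes with a profile close to that of Pou2af1 were sought by the root mean square difference of log2(CPM + 0.1), centred on each gene's mean over the 4 libraries, among 9311 other genes with a mean of at least 5 CPM. Among the 5 nearest were Fam83g (0.19), Podnl1 (0.19), Rbm24 (0.19) and Spock2 (0.23). Podnl1 had 57.4, 8.26, 53.9 and 7.4 CPM. Il10 ranked 62 (0.69), the follicular receptor gene Cxcr5 87 (0.82), Cd79a 250 (1.04) and Ms4a1 252 (1.05), while the remaining genes of the set ranked from 4485 to 9112. The measure reads the size of a change as well as its direction, so Maf, with its larger ratios, ranked 9248 (1.99).

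The profile of Cd79a had other neighbours. The 5 nearest were Syk (0.14), a kinase of the B cell receptor, Slc6a19 (0.19), Krt18 (0.21), Cd24a (0.22) and Slc5a1 (0.30). Of these, Slc6a19 and Slc5a1 encode amino acid and glucose transporters of enterocytes and Krt18 a keratin of epithelial cells. Krt18 had 7.49, 13.7, 16.7 and 3.82 CPM. Ms4a1 ranked 55, H2-Aa 160, H2-Ab1 184 and H2-Eb1 221 of 9311. The partner chain Cd79b ranked 820, Cd74 3797, Pou2af1 8840 and Bank1 8921. The B cell gene Bank1 thus lay farther from Cd79a than Pou2af1 did.

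Further B cell genes showed both patterns. Of 29 listed beyond the set, 24 were in the table and 23 were tested. In 16 of the 23 the library labelled flox 1 was highest (22.3% of all tested genes), and in 11 both libraries numbered 1 lay above both numbered 2 (22.5%). At least 2-fold in both labels were 2 of the 23 (2.1%): Cr2, given above, and Faim3 (now Fcmr, the receptor for IgM) at 11.4, 4.65, 13.3 and 2.23 CPM. The 4 most abundant were Cd83, an activation marker that T cells also make, at 2738, 1303, 2730 and 2198 CPM, Cd37 at 238, 257, 243 and 246, Ralgps2 at 66.5, 49.1, 73 and 65, and Cd72 at 36.6, 46, 44.2 and 48. Of 12 tested genes of B cell receptor signalling that other cells share, 8 differed by less than 2-fold between the highest and the lowest library, as Inpp5d at 421, 333, 398 and 362 CPM and Prkcb at 287, 299, 289 and 309. The other 4 were Plcg2, Syk, Btk and Pik3ap1. Plcg2, a phospholipase, had 6.08, 6.58, 16.2 and 1.4 CPM, and Syk had 3.94, 5.34, 10 and 2.32. The kinase gene Btk had 2.48, 0.791, 1.56 and 0.532 CPM, and the adaptor gene Pik3ap1 had 18, 26.5, 22.1 and 44.1. The share of all tested genes under 2-fold was not counted, so the number 8 does not set this list apart.

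Genes of germinal centre B cells spanned a wide range of levels. Elk3 had 124, 109, 112 and 119 CPM, Neil1 104, 66.5, 99.3 and 103, the death receptor gene Fas 58.4, 41.6, 61.4 and 50.7, and S1pr2, a sphingosine phosphate receptor, 44.9, 31.6, 38.8 and 36.8. Rgs13, a regulator of G protein signalling, had 1.56, 1.14, 3.24 and 1.06 CPM. Of 12 listed, 11 were tested and 8 of those were highest in the library labelled flox 1 (22.3% of all tested genes). In 7 of the 11, both libraries numbered 1 lay above both numbered 2 (22.5% of all tested genes). Among plasma cell genes the abundant ones are also effector T cell genes: Xbp1 had 220, 198, 234 and 229 CPM, Irf4 183, 91.7, 152 and 117, and Prdm1 134, 88, 118 and 83.2. Mzb1, a chaperone of antibody-secreting cells, had 0.924, 2.32, 1.88 and 0.435 CPM. The 7 listed immunoglobulin constant genes were not analysed here.

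Markers of other cells that carry class II also differed between libraries. The 22 myeloid and dendritic cell genes summed to 111, 160, 215 and 148 CPM, and the 18 epithelial genes to 231, 637, 578 and 550. Cst3 was the largest part of the myeloid and dendritic sum in every library and differed little, at 68.8, 63.6, 68.6 and 66.6 CPM. Of the myeloid and dendritic list, 4 genes were at 0 in some library, among them Csf1r, the macrophage growth factor receptor, at 0, 3.41, 6.23 and 3.43 CPM. Lyz2, the lysozyme of macrophages, had 7.97, 41.2, 66.9 and 42.9 CPM, and Zbtb46, a factor of conventional dendritic cells, had 7.29, 5.93, 8.32 and 6.29. Labelled wt 1 had the smallest value in both sums and in class II, and labelled flox 1 was highest for myeloid genes and class II. The part of B, myeloid and epithelial cells in the class II values was not tested.

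**Figure D4:**
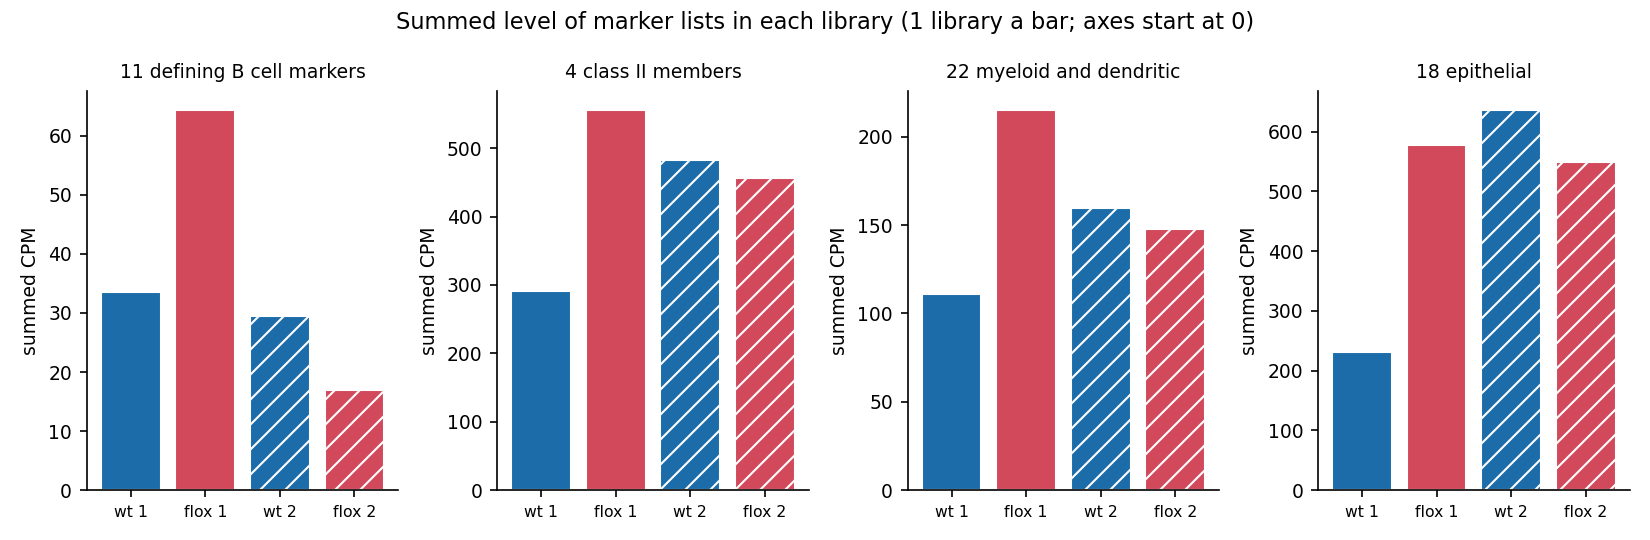
Summed CPM in each library of the 11 narrow B cell markers, the 4 class II genes of the set, the myeloid and dendritic list and the epithelial list (1 library a bar, hatched for number 2; axes start at 0). The B cell sum runs from 17 to 64.4 CPM, and the library labelled wt 1 is lowest in the other 3 panels.

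Genes of follicular T cells, which are among the cells known to make Pou2af1, followed the library number in many cases. Both libraries numbered 1 lay above both numbered 2 for 15 of 21 tested genes (22 listed), against 22.5% of all tested genes. Angptl2 had 171, 35.6, 122 and 22.9 CPM and Cxcr5 had 202, 65.9, 181 and 89.4. Their ratios within wt were 4.8 (4.42 to 5.2) and 3.06 (2.88 to 3.26), and within flox 5.32 (4.83 to 5.88) and 2.03 (1.92 to 2.14). Pou2af1, at 5.3 and 8.73, lay above both genes within each label and below Il21, a cytokine of follicular helper cells, at 54.9 (26.4 to 138) and 14.9 (9.53 to 24.8). Ascl2, a factor of the same cells, had 86, 3, 100 and 0 counts. Angptl2, Cxcr5, Il21 and Ascl2 were chosen after their values were seen. Of the 21 tested genes, 19 were higher in number 1 within wt and 15 within flox. Among all 13022 tested genes, 6319 and 6538 were. The median ratios over the list were 1.66 and 1.54, against 0.991 and 1.00 over all tested genes. Slamf6, at 0.89 and 0.899, and Cd200, at 0.849 and 0.709, were lower in number 1 within both labels.

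By label, the comparison that the titles state, no gene of the set passed the test. Each label holds a library with high Maf counts and a library with low ones. The contrast therefore cannot show whether a gene follows the Maf level. Maf itself had a log2 fold change of -0.30 (SE 2.63) and did not pass. In edgeR's quasi-likelihood test over 13022 genes, 1 gene passed (0.00768% of those tested) and 0 of the 9 were called, with an adjusted p = 1 for each. None of the 9 had an unadjusted p under 0.05 in this test, against 258 of the 13022 tested genes. DESeq2 also called 0 of the 9. Pou2af1 averaged 19.5 ± 18.8 CPM in labelled wt and 18.6 ± 20.9 in labelled flox (SD, n = 2), a log2 fold change of -0.06 (SE 1.33). Cd79a averaged 10.2 ± 2.27 and 12.7 ± 12.2 CPM (SD, n = 2), a log2 fold change of 0.32 (SE 0.80).

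The other B cell and class II genes had log2 fold changes of labelled flox over labelled wt between 0.06 for Ms4a1 (SE 0.44) and 0.75 for H2-Eb1 (SE 0.42). Bank1, at 0.72 (SE 0.40), was the single gene of the 9 with both libraries labelled flox above both labelled wt, as were 13.2% of all tested genes. The median over the 9 genes was 0.33, over the 23 further B cell genes 0.18 and over all tested genes 0.00. Across the 9 lists beyond the set, 0 tested genes passed in either direction by edgeR or by DESeq2, and 5 had an unadjusted p under 0.05 by edgeR. These lists held from 6 to 23 tested genes each. Over all 13022 tested genes, 258 had an unadjusted p under 0.05 by edgeR. Without the library labelled flox 1 the log2 fold change of Cd79a was -1.32 and that of H2-Ab1 was 0.04.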

How the data were processed

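RNA from 4 sorted samples was sequenced. Trizol lysis, spin-column purification and a library kit for very little mRNA were used, per the labels' protocols. TopHat2 2.1.1, HTSeq 0.6.1, edgeR 3.14 and build mm10 are named in the submitters' processing notes; their settings, the annotation and strand handling were not given in the sources used here. Raw counts per gene symbol were deposited by the authors (24061 genes; 5 counter summary rows, 66.6% to 67.2% of each column, were left out). A filtered table of normalized values deposited by the authors (10618 rows, a signal that is not whole) served only as an alternative source of ratios.

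The test was edgeR 4.0.16 under R 4.3.3 (filterByExpr, TMM, robust glmQLFit, glmQLFTest, Benjamini-Hochberg, threshold 0.05), labelled flox against labelled wt, after the test had been checked on simulated counts. Samples were grouped by their titles. CPM use TMM library sizes, and RPKM divide CPM by exon length (GENCODE M21, GRCm38). Count intervals are exact Poisson, and ratio intervals exact binomial, at 95%. With 2 libraries against 2, an exact permutation test cannot go below p = 0.333, so none was run. The standard error is the log2 fold change over the root of F. Alternatives were DESeq2 1.42.0, other scalings, no filter, the replicate block and fits without 1 library.

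The members and lists were chosen with earlier results of these data known. Named were the 9 members, Maf, Foxp3, Il10, up to 4 most abundant genes per list (in part) and the 5 nearest profiles of Pou2af1 and Cd79a, without predicted genes, pseudogenes or receptor segments. Cd3e and Cd4 check the sort; Angptl2, Cxcr5, Ciita, the NF-Y, H2-D and H2-O genes and other listed genes that the rule does not name were chosen after their values were seen. Older symbols were matched through RefSeq. Without knowledge of strand, reads of overlapping antisense genes cannot be told apart. A few genes that these rules pick out are left unreported.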

Additional observations from a re-analysis of the deposited data

Results flagged for a closer look

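For 6 of the 9 genes the library numbered 1 was lower than the library numbered 2 within wt and higher within flox, with both counting intervals clear of equality. The ratio of number 1 to number 2 within flox exceeded that within wt by 7.21 times for Cd79a, 3.42 times for H2-Aa, 3.25 times for H2-Eb1, 2.92 times for H2-Ab1, 1.76 times for Cd74 and 1.58 times for Cd79b. There is 1 library on each side of each ratio, so the difference was not tested against the spread between samples. Pou2af1, Ms4a1 and Bank1 had ratios on the same side of 1 in both labels.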

How the results depend on the processing

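Between labels, 1 gene passed the quasi-likelihood test, and also with DESeq2-type size factors, with library totals and with the replicate block; 2 passed without the filter and 12 by DESeq2, while 0 to 0 passed in the fits without 1 library, in which the lone library of a label is assumed to vary like the others. None of the 9 genes was called under any of these. The log2 fold change of Cd79a was -0.057 and that of Ms4a1 -0.036 with the replicate block. Leaving out each library in turn, it ran from -2.35 to 1.59 for Pou2af1, -1.32 to 1.07 for Cd79a, -0.62 to 0.52 for Ms4a1 and -0.057 to 0.97 for H2-Aa, with sign changes; the cause was not tested. The other 5 genes kept their sign throughout. The libraries with the same number deviated together (r = 0.26 across genes, which are not independent replicates), but the labels state no pairing. Ratios of the 9 genes within a label stayed inside their counting intervals under both other scalings and with the deposited normalized values. The exception was Cd74 within wt, at 0.558 with library totals. Of the follicular T cell genes with ratios above, Cxcr5 (2.85), Slamf6 (0.829) and Cd200 (0.791) also fell outside within wt with library totals. All 16 ratios of Pou2af1 to a B cell gene stayed inside their intervals with the deposited normalized values. Depth limits Bank1 (59 to 148 counts) and the 11 narrow B cell markers most: Pax5 had 3 counts in each library numbered 2.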

Other observations

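A few genes were chosen after their values were seen, for being low in the library labelled flox 2. Siglech is on the myeloid and dendritic list and Ly6d on the B cell list, while Ly6c2 and Klk1 are on no list. Siglech, a surface receptor of plasmacytoid dendritic cells, had 167, 181, 187 and 15 counts (8.12, 8.95, 7.66 and 0.725 CPM), in the order of libraries used above. Ly6d, a surface protein shared with B cells, had 7.78, 7.66, 3.93 and 0.193 CPM. Ly6c2 had 1.22, 1.68, 1.64 and 0.0484 CPM and Klk1 had 1.41, 2.52, 1.47 and 0.0967. Of the 11 narrow B cell markers, 8 were also lowest in that library. The share of all tested genes that were lowest there was not counted, so this number describes these markers only.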
